A study of Mus musculus with 24 samples.

Results

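The 10 genes described here encode chemokines, the small secreted proteins that guide cell migration: Cxcl1, Cxcl2, Cxcl5, Cxcl10, Cxcl12, Cxcl14, Ccl2, Ccl5, Ccl7 and Ccl9. They were chosen by symbol, and each symbol matched 1 Ensembl gene, so the members were 10 of the 37310 genes in the expression tables. Their RNA was measured in mouse stromal vascular cells, the mixed cells that remain when fat is digested with collagenase and the floating adipocytes are lost. Their donors were C57BL/6 mice aged 6 weeks, and the depots were the inguinal fat, a white adipose tissue (WAT), and the interscapular fat, a brown one (BAT). The cells were grown to near confluence. All cultures were then induced with insulin, dexamethasone and 3-isobutyl-methylxanthine, and on day 4 they were switched to insulin and the thyroid hormone T3. The 8 groups crossed depot (WAT or BAT), day after induction (4 or 8) and treatment (control or EGCG), with 3 libraries each. EGCG, epigallocatechin gallate, is the main catechin of green tea, and DMSO was the vehicle given to the controls. Its dose is not given in the sources used here. Nothing in the labels says whether the replicates of a group came from separate animals or isolations, so the p-values measure only the spread between these samples, which may be technical.

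Chemokines are named after the spacing of their first cysteines, as CXC or CC. Cxcl1, Cxcl2 and Cxcl5 act on the receptor Cxcr2 and draw neutrophils. Cxcl10 is induced by interferons and draws T cells through Cxcr3. Cxcl12 binds Cxcr4 and the scavenger receptor Ackr3, and retains progenitor cells and leukocytes in their niches. Cxcl14 is a homeostatic chemokine of stroma and epithelia. Ccl2 and Ccl7 draw monocytes through Ccr2, Ccl5 draws T cells and monocytes, and Ccl9 acts through Ccr1. In fat, preadipocytes and other stromal cells are a known source of Ccl2, and macrophages that gather in obese fat follow it.

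Expression is given as FPKM, fragments scaled to transcript length and to the reads on genes, which allows levels to be compared between genes. Replicates 1 and 2 of every group are in 1 table and carry the tests. Replicate 3 of every group is in a table scaled on its own and did not enter the main test. It was used for direction, for ranges and overlaps of single libraries, and in alternative fits of both tables. Libraries held 39452696 to 52893848 reads on genes in the first table and 16392420 to 41675643 in the second. The library WAT day 8 EGCG replicate 3 stood apart. In it 5 genes took 61.0% of all reads, against 3.64% to 10.5% in the other 23 libraries, so its deposited FPKM are low for most other genes. Its values are given as deposited, and, where they matter, after rescaling by the median ratio over genes. Of 8 markers of fibroblasts and progenitors 7 passed the filter given below. Among them were Col1a1 at up to 3223 FPKM, Ly6a at up to 1039 FPKM and Pdgfra at up to 186 FPKM. Levels of the other markers of this list are not given singly. Macrophage markers were also present, as given beside the results below. Of 8 markers of other leukocytes 1 passed the filter, and Cd3g and Ncr1 had no read in any library. The members are therefore chemokine genes of a mixed stromal culture, and the cell that made each RNA was not measured. In such bulk samples fewer cells of a type and less RNA per cell cannot be told apart.

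Of the members 7 lie in 3 groups of neighbours. On chromosome 5 (coordinates of the mm9 build), Cxcl5 at 91188325 to 91190651, Cxcl1 at 91320267 to 91322141 and Cxcl2 at 91332897 to 91334935 are all on the plus strand. Cxcl5 and Cxcl1 are 129615 bases apart, and Cxcl1 and Cxcl2 10755 bases. Cxcl10 lies further along, at 92775664 to 92777915 on the minus strand, and shares exonic bases with Art3, an ADP-ribosyltransferase gene on the plus strand. On chromosome 11, Ccl2 at 81849073 to 81850955 and Ccl7 at 81859214 to 81861027 are 8258 bases apart with no annotated gene between them. Ccl5 at 83339280 to 83344020 and Ccl9 at 83386421 to 83392138, both on the minus strand, are 42400 bases apart, also with none between them. Cxcl12 is on chromosome 6 at 117118553 to 117131385, and Cxcl14 on chromosome 13 at 56390008 to 56397912. All 10 are annotated as protein-coding. The Ensembl identifiers in the tables are ENSMUSG00000029380.10 for Cxcl1, ENSMUSG00000058427.6 for Cxcl2, ENSMUSG00000029371.5 for Cxcl5, ENSMUSG00000034855.7 for Cxcl10, ENSMUSG00000061353.5 for Cxcl12 and ENSMUSG00000021508.9 for Cxcl14, and ENSMUSG00000035385.5 for Ccl2, ENSMUSG00000035042.2 for Ccl5, ENSMUSG00000035373.2 for Ccl7 and ENSMUSG00000019122.7 for Ccl9.

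Promoter sequences from RefSeq (build GRCm38.p6) matched 6 of the 10 members: Cxcl1, Cxcl2, Cxcl10, Cxcl12, Cxcl14 and Ccl9. The 250 bases before the start of 4 of them are shown. Cxcl1 and Cxcl2 are shown because these neighbours both rose with EGCG in BAT cells on day 4, while on day 8 only Cxcl1 passed. The difference between these neighbours was not tested. Cxcl10 is shown because it fell in WAT cells beside the interferon response genes, and Ccl9 because it fell with EGCG in every comparison. Capitals mark the motif letters searched. The kappaB site, bound by NF-kB, was searched as GGG, any 2 bases and TTTCC on both strands. The interferon-stimulated response element (ISRE) was searched as TTTC, any 2 bases and TTTC on both strands. The AP-1 site was searched as TGA, any base and TCA on both strands, and the TATA box as TATAAA on the strand of the gene. No match overlapped that of another motif.
Cxcl1, chr5:90890995-90891244, plus strand: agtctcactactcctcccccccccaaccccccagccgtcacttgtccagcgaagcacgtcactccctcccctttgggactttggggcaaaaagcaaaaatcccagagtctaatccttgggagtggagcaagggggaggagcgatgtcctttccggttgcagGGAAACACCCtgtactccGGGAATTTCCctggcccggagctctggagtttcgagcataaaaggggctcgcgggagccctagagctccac
Cxcl2, chr5:90903649-90903898, plus strand: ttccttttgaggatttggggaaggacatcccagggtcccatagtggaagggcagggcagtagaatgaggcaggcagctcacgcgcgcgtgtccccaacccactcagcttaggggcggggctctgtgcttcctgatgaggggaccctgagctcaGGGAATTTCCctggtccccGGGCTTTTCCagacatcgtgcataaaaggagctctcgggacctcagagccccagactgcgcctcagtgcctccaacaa
Cxcl10, chr5:92348890-92349139, minus strand: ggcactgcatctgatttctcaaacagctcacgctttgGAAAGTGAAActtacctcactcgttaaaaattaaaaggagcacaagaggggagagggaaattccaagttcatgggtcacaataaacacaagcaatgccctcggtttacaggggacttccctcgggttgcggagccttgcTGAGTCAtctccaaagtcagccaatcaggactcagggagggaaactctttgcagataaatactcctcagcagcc
Ccl9, chr11:83578637-83578886, minus strand: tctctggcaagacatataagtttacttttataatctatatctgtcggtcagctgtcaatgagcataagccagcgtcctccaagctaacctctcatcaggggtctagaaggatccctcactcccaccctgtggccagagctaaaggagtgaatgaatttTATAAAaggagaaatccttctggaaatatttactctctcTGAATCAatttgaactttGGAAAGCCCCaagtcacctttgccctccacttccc

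Cxcl1 held the kappaB letters at 2 places, 89 to 80 and 71 to 62 bases before its start, and Cxcl2 at 97 to 88 and 78 to 69. The same 10 letters, GGGAATTTCC, stood at 1 of the places in each of the pair. Ccl9 held 1 match, 35 to 26 bases before its start, with an AP-1 match at 53 to 47 and a TATA match at 92 to 87. Cxcl10 held the ISRE letters at 213 to 204 bases before its start and the AP-1 letters at 74 to 68. Of 32851 mouse promoter windows of this length, 1.41% held the kappaB letters, 2.98% the ISRE letters, 6.75% the AP-1 letters and 7.59% the TATA letters. Of the members whose windows are not shown, Cxcl14 held 1 ISRE match and Cxcl12 none of the 4 motifs. A match describes letters only. Other forms of each site were not searched, so a window without a match may still hold one, and binding was not measured.

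All 10 members passed the filter of at least 1 FPKM in 2 of the 16 libraries. Cxcl2 passed only through its day 4 EGCG libraries and Ccl5 only through control libraries, so a difference involving those libraries was in part built into the filter. The members together summed to 240.4 FPKM in WAT control cells on day 4 and to 312.1 FPKM in BAT control cells. Cxcl12 was the highest member in 6 of the 8 groups, with 69.3% of the sum in BAT control cells on day 8. With EGCG the lead passed to Cxcl14 in BAT cells on day 4 and to Ccl7 in BAT cells on day 8. There Ccl2 and Ccl7 together made up 71.9% of the sum, against 13.6% in the BAT controls of that day.

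**Figure D1:**
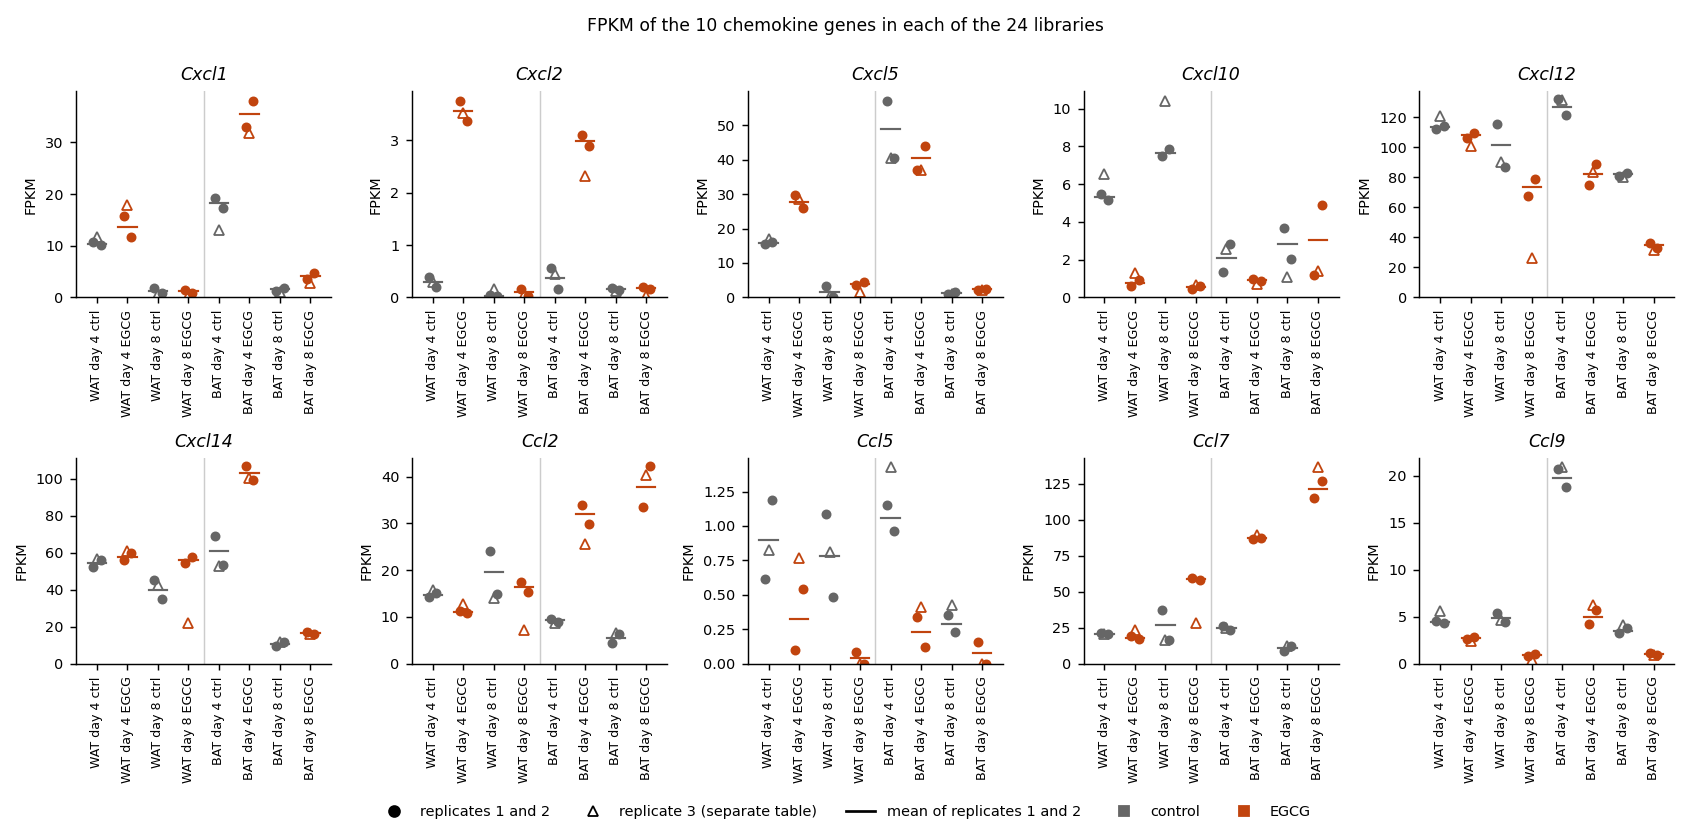
FPKM of each member in the 24 libraries, with the 8 groups on the x axis, filled circles for replicates 1 and 2, open triangles for replicate 3, a bar for the mean of replicates 1 and 2, grey for control and red for EGCG. Ccl7 in BAT cells stands at 115 to 137 FPKM with EGCG on day 8 and at 9.07 to 12.2 FPKM in the controls, while Cxcl1, Cxcl2 and Cxcl5 are low on day 8 in every group.

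The first question was how EGCG changed each gene in each depot and on each day. For WAT cells on day 4, 3 of the 10 members passed the test (53.7% of the 14095 genes tested did): Cxcl2 was higher and Cxcl10 and Ccl9 were lower. For WAT cells on day 8, 7 passed (63.6% of all genes), with Cxcl5, Cxcl14 and Ccl7 higher and Cxcl10, Cxcl12, Ccl5 and Ccl9 lower. For BAT cells on day 4, 8 passed (48.5% of all genes), with Cxcl1, Cxcl2, Cxcl14, Ccl2 and Ccl7 higher and Cxcl12, Ccl5 and Ccl9 lower. For BAT cells on day 8, 6 passed (72.6% of all genes), with Cxcl1, Cxcl14, Ccl2 and Ccl7 higher and Cxcl12 and Ccl9 lower. With so many genes passing in each comparison, the counts alone are no result about the members, and their directions and sizes are given below. The members' median log2 change was -0.13 and -0.14 in WAT cells on day 4 and 8 and 0.25 and 0.30 in BAT cells, beside 0.09, 0.17, 0.03 and 0.17 over all genes. Rescaling by the median ratio moved the medians over all genes to -0.02 and 0.01 in WAT cells and to -0.0012 and 0.02 in BAT cells. It moved the share of higher genes among those called from 64.1% to 44.7% and from 70.3% to 51.3% in WAT cells, and from 57.6% to 51.3% and from 64.0% to 51.8% in BAT cells, while no called member changed direction. Replicate 3 had the same direction in 23 of the 24 calls as deposited and in all 24 after rescaling.

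**Figure D2:**
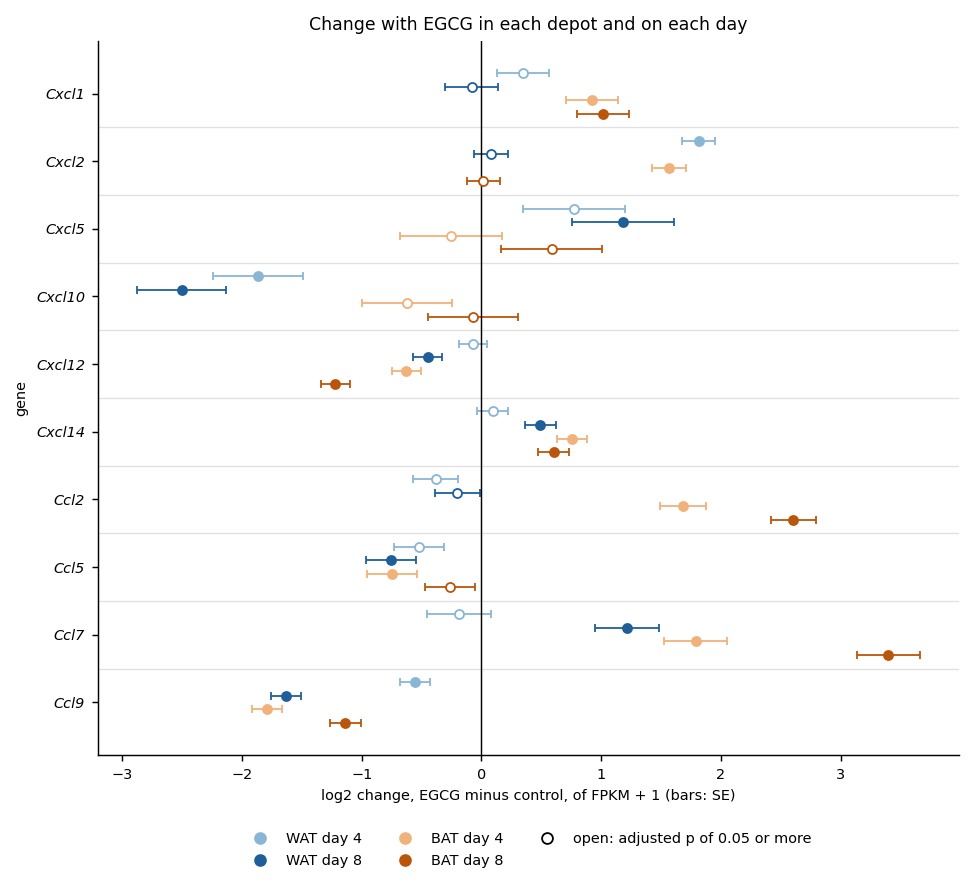
Log2 change with EGCG of FPKM + 1 for each member, EGCG minus control, with SE bars and 1 colour for each depot and day; open circles did not pass the test. Ccl2 and Ccl7 in BAT cells lie furthest to the right, at up to 2.61 and 3.40, and Cxcl10 in WAT cells furthest to the left, at -2.51 on day 8.

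Of the neutrophil chemoattractants, Cxcl1 was higher with EGCG in BAT cells on both days. On day 4 the BAT controls were at 19.2, 17.3 and 13.1 FPKM and the EGCG libraries at 33.1, 38.0 and 31.9 FPKM. Day 8 levels were 1.31, 1.78 and 0.95 FPKM in the controls and 3.52, 4.80 and 2.86 FPKM with EGCG. The groups did not overlap on either day. The fold of the means was 1.95 on day 4 (log2 change 0.92, SE 0.22, adjusted p = 0.00415) and 2.69 on day 8 (log2 change 1.01, SE 0.22, adjusted p = 0.0012). In WAT cells Cxcl1 stood at 10.7, 10.2 and 11.7 FPKM in day 4 controls and at 15.7, 11.6 and 17.9 FPKM with EGCG, a log2 change of 0.35 that did not pass (adjusted p = 0.203). On day 8 both WAT groups were between 0.302 and 1.86 FPKM and overlapped.

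Cxcl2 was nearly silent except with EGCG on day 4. In WAT cells on day 4 it stood at 0.394, 0.204 and 0.300 FPKM in the controls and at 3.75, 3.36 and 3.52 FPKM with EGCG. In BAT cells the values were 0.571, 0.158 and 0.455 FPKM in the controls and 3.10, 2.89 and 2.32 FPKM with EGCG. All 6 EGCG libraries of day 4 were thus above all 6 controls. The counts behind this were 590 reads with EGCG against 53 in the controls of WAT cells (replicates 1 and 2), a depth-scaled ratio of 11.6 with a 95% counting interval of 8.72 to 15.6. In BAT cells they were 510 against 55 reads, a ratio of 8.48 with an interval of 6.41 to 11.4. These intervals cover counting error only. The log2 changes of FPKM + 1 were 1.81 (SE 0.14, adjusted p = 8.74e-07) and 1.57 (SE 0.14, adjusted p = 2.64e-06), a scale that understates changes of low genes. Cxcl2 passed the filter only through these EGCG libraries, so the difference was in part built in. On day 8 the gene was at 0.198 FPKM or less in all 12 libraries. Replicates 1 and 2 held 18 reads with EGCG and 6 in the controls of WAT cells, and 32 and 26 in BAT cells. Neither depot passed (adjusted p = 0.637 and 0.923). In replicate 3 the control was the higher in both depots, at 0.165 against 0.0393 FPKM in WAT and 0.124 against 0.0317 FPKM in BAT cells. These values rest on 5 against 3 reads in WAT and 4 against 1 in BAT cells. The WAT EGCG library is the one that stood apart, and after rescaling the WAT values were 0.181 against 0.0956 FPKM.

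Cxcl5 had the highest group means of the 3 on day 4. It stood at 15.5, 16.2 and 17.1 FPKM in WAT controls and at 29.7, 26.0 and 28.6 FPKM with EGCG, which did not overlap, yet the change did not pass (log2 change 0.77, SE 0.43, adjusted p = 0.147). It passed with limma-voom on recovered reads (0.81, adjusted p = 0.0061), with both tables in 1 fit (0.75, adjusted p = 0.042) and without WAT day 8 control replicate 1 or 2, which enter the shared estimate of spread (both adjusted p = 0.0017). BAT cells were at 57.1, 40.6 and 40.6 FPKM in controls and at 36.9, 43.9 and 37.1 FPKM with EGCG, and the groups overlapped. The only call was in WAT cells on day 8, where the controls were at 3.21, 0.135 and 0.474 FPKM and the EGCG libraries at 3.59, 4.38 and 1.49 FPKM. Control replicate 1 was far above the other controls and also above the third EGCG library. The log2 change of 1.18 (adjusted p = 0.0287) fell to 0.24 (adjusted p = 0.317) without control replicate 2, and it also lost its call without either EGCG replicate (adjusted p = 0.063 and 0.116) and after median-ratio rescaling (adjusted p = 0.057). Day 8 BAT cells were at 1.0, 1.46 and 1.09 FPKM in the controls and 2.12, 2.55 and 2.21 FPKM with EGCG, a log2 change of 0.59 that did not pass (adjusted p = 0.237) but did without either of those WAT libraries (both adjusted p = 0.0061). The groups did not overlap.

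Cxcl10 was lower with EGCG in WAT cells. The day 4 controls were at 5.49, 5.18 and 6.52 FPKM and the EGCG libraries at 0.580, 0.902 and 1.29 FPKM. Day 8 controls were at 7.46, 7.86 and 10.4 FPKM and the EGCG libraries at 0.457, 0.596 and 0.636 FPKM. Controls were above EGCG libraries without overlap on both days. The mean was 7.20 times lower with EGCG on day 4 (log2 change -1.87, SE 0.37, adjusted p = 0.00131) and 14.5 times lower on day 8 (log2 change -2.51, SE 0.37, adjusted p = 0.000102). BAT controls were at 1.32, 2.83 and 2.56 FPKM on day 4 against 1.0, 0.871 and 0.705 FPKM with EGCG, and the change did not pass (log2 change -0.62, adjusted p = 0.193). These groups did not overlap, and the change passed with both tables in 1 fit (-0.77, adjusted p = 0.028), with median-ratio rescaling added (-0.78, adjusted p = 0.046) and without either BAT day 8 EGCG library (both adjusted p = 0.046). On day 8 BAT controls were at 3.66, 2.04 and 1.09 FPKM and EGCG libraries at 1.17, 4.91 and 1.38 FPKM, with EGCG replicate 2 far above the other 2. The change of -0.07 (adjusted p = 0.877) was -0.79 without that library (adjusted p = 0.028). The difference between the depots in the EGCG effect on day 8 was 2.43 on the log2 scale (SE 0.53, adjusted p = 0.00358). Without strand information, reads of Cxcl10 and of Art3 in the shared bases cannot be told apart. Art3 averaged 6.93 FPKM in WAT controls and 1.24 FPKM with EGCG on day 8, and its part in the Cxcl10 values was not tested.

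The interferon response genes moved with Cxcl10 in WAT cells but also fell in BAT cells. Of 16 such genes, 15 were lower with EGCG in WAT cells on each day, and 11 were lower and 1 higher in BAT cells on each day. Of all genes 19.3% and 18.9% were lower in WAT cells and 20.6% and 26.1% in BAT cells on day 4 and 8. The medians were -1.30 and -2.37 in WAT cells and -0.87 and -0.50 in BAT cells on the log2 scale, beside the medians over all genes given above. Isg15, a ubiquitin-like protein induced by interferon, fell from 28.7 to 1.27 FPKM on day 4 and from 129 to 15.5 FPKM on day 8 in WAT cells. The exception was Ifit2, which was higher with EGCG in BAT cells, at 9.24 against 4.91 FPKM on day 8. Cxcl9, the sister gene of Cxcl10, fell from 1.01 to 0.0265 FPKM in WAT cells on day 8, and Cxcl11, named for its kinship after its values were seen, never passed 0.0689 FPKM.

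Cxcl12 was abundant everywhere and lower with EGCG in 3 of the 4 comparisons. In BAT cells on day 8 the controls were at 81.3, 83.1 and 80.6 FPKM and the EGCG libraries at 36.2, 33.2 and 31.6 FPKM. On day 4 the BAT controls were at 132, 122 and 131 FPKM and the EGCG libraries at 75.0, 89.1 and 83.7 FPKM. Neither pair of groups overlapped. The log2 change was -1.22 on day 8 (SE 0.12, adjusted p = 1.79e-06) and -0.63 on day 4 (SE 0.12, adjusted p = 0.000994). The day 4 call was lost when both tables entered 1 fit (adjusted p = 0.071). In WAT cells on day 4 the levels were 112, 115 and 121 FPKM in controls and 106, 110 and 101 FPKM with EGCG, a log2 change of -0.07 with a 95% interval of -0.33 to 0.19. It passed only with both tables in 1 fit after rescaling (-0.27, adjusted p = 0.013, or 0.016 without WAT day 8 EGCG replicate 3). On day 8 they were 116, 87.1 and 90.0 FPKM in controls and 67.8, 79.1 and 26.3 FPKM with EGCG, the last in the library that stood apart. The change of -0.45 there (adjusted p = 0.0059) lost its call without control replicate 1 (-0.25, adjusted p = 0.062) or EGCG replicate 1 (-0.34, adjusted p = 0.063).

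Both receptors of Cxcl12 were measured. Ackr3, which takes up Cxcl12 without classical signalling, was higher with EGCG in all 4 comparisons. It rose from 11.3 to 36.0 FPKM and from 7.22 to 24.8 FPKM in WAT cells on day 4 and 8, and from 7.67 to 18.4 FPKM and from 6.42 to 11.6 FPKM in BAT cells. Cxcr4, the signalling receptor, stayed low at 1.26 to 3.13 FPKM in the group means and was higher with EGCG in BAT cells on day 4 alone of the 4 comparisons (2.85 against 1.62 FPKM).

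Cxcl14 was higher with EGCG in BAT cells. On day 4 the controls were at 68.9, 53.2 and 53.1 FPKM and the EGCG libraries at 107, 99.5 and 101 FPKM. Day 8 controls were at 9.79, 11.6 and 11.5 FPKM and the EGCG libraries at 17.3, 16.2 and 16.1 FPKM. The groups were apart on both days, with log2 changes of 0.76 (SE 0.13, adjusted p = 0.000437) and 0.60 (SE 0.13, adjusted p = 0.00109). The day 8 call was lost when both tables entered 1 fit (adjusted p = 0.053). In WAT cells the day 4 groups overlapped, at 52.6, 56.0 and 56.8 FPKM in controls and 56.0, 59.97 and 61.1 FPKM with EGCG. On day 8 the WAT controls were at 45.1, 35.0 and 42.3 FPKM and the EGCG libraries at 54.8, 57.9 and 22.3 FPKM. The log2 change of 0.49 (adjusted p = 0.00522) lost its call after median-ratio rescaling (0.30, adjusted p = 0.072), with both tables in 1 fit (0.03, adjusted p = 0.953) and without control replicate 2 (0.31, adjusted p = 0.06). Replicate 3 had the opposite sign as deposited (-0.90) and the same sign after rescaling (0.22).

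The monocyte chemoattractants Ccl2 and Ccl7 had the highest log2 changes with EGCG in BAT cells. Ccl2 was at 9.46, 9.03 and 8.63 FPKM in BAT controls on day 4 and at 33.9, 30.0 and 25.7 FPKM with EGCG. On day 8 it was at 4.49, 6.34 and 6.61 FPKM in controls and at 33.6, 42.2 and 40.4 FPKM with EGCG. Each EGCG library was far above each control of its day. The folds were 3.46 (log2 change 1.68, SE 0.19, adjusted p = 1.7e-05) and 7.0 (log2 change 2.61, SE 0.19, adjusted p = 1.26e-07). In WAT cells Ccl2 was at 14.3, 15.0 and 15.7 FPKM in controls and 11.2, 10.8 and 12.8 FPKM with EGCG on day 4, a log2 change of -0.38 that did not pass (adjusted p = 0.106). It passed after median-ratio rescaling (-0.51, adjusted p = 0.037), with both tables as well (-0.47, adjusted p = 0.017) and without either WAT day 8 control library (both adjusted p = 0.029). On day 8 the WAT values overlapped, at 24.1, 15.0 and 14.1 FPKM in controls and 17.6, 15.4 and 7.29 FPKM with EGCG. The effect of EGCG on Ccl2 differed between the depots by 2.07 on day 4 (SE 0.27, adjusted p = 0.000214) and by 2.81 on day 8 (SE 0.27, adjusted p = 1.30e-05).

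Ccl7 on day 8 in BAT cells had the largest log2 change of any member with EGCG. In BAT cells on day 4 it was at 25.9, 23.1 and 24.5 FPKM in controls and at 86.5, 87.5 and 89.0 FPKM with EGCG. On day 8 it was at 9.07, 12.2 and 12.1 FPKM in controls and at 115, 127 and 137 FPKM with EGCG. The folds were 3.55 (log2 change 1.79, SE 0.27, adjusted p = 0.000162) and 11.4 (log2 change 3.40, SE 0.27, adjusted p = 2.49e-07). In WAT cells on day 4 the gene did not pass, at 21.0, 20.6 and 20.8 FPKM in controls and 19.2, 17.1 and 23.4 FPKM with EGCG. On day 8 the WAT EGCG libraries were at 59.7, 58.2 and 28.1 FPKM and the controls at 37.6, 16.2 and 16.8 FPKM, so that control replicate 1 was above the third EGCG library. The log2 change was 1.22 (SE 0.27, adjusted p = 0.00168), and it kept its call under every alternative and without any 1 library. Its size rested on the 2 controls, and the change was 1.80 without control replicate 1 and 0.64 without control replicate 2. In WAT cells on day 8 the pair parted, where Ccl7 passed and Ccl2 did not (log2 change -0.20, adjusted p = 0.374). Without control replicate 2 the change of Ccl2 passed as lower (-0.53, adjusted p = 0.017). The difference between the 2 genes was not tested.

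Ccl8, a further CC chemokine for monocytes, lies between Ccl7 and Ccl5 on chromosome 11 and was no member. It was at 11.7 FPKM with EGCG and 0.461 FPKM in the controls of BAT cells on day 8, and at 48.5 and 15.1 FPKM in WAT cells. Ccr2, the receptor of Ccl2 and Ccl7, had at most 6 reads in any library. Among 14 tested cytokines and their receptors, 8 were higher and 4 lower with EGCG in BAT cells on day 8, where 46.5% of all genes were higher and 26.1% lower. Il6, a pleiotropic cytokine made by stromal cells, rose from 1.93 to 17.7 FPKM there, and Lif, a cytokine of the same family, from 2.99 to 16.2 FPKM. Of 19 tested genes of the NF-kB pathway and its feedback, 10 were higher and 4 lower in that comparison (median 0.16, against 0.17 over all genes), beside the same shares of all genes. Icam1, an adhesion molecule for leukocytes, was higher with EGCG in all 4 comparisons, for example at 18.8 against 4.18 FPKM in BAT cells on day 8. The genes of these lists that were lower are not named here.

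Ccl9 was lower with EGCG in all 4 comparisons. In BAT cells on day 4 the controls were at 20.7, 18.7 and 20.9 FPKM and the EGCG libraries at 4.25, 5.76 and 6.20 FPKM. On day 8 they were at 3.23, 3.75 and 4.07 FPKM and at 1.13, 0.956 and 0.944 FPKM. In WAT cells the controls were at 4.54, 4.33 and 5.58 FPKM on day 4 and at 5.41, 4.40 and 4.62 FPKM on day 8. The EGCG libraries were below them, at 2.62, 2.80 and 2.43 FPKM and at 0.768, 1.03 and 0.343 FPKM. No EGCG library overlapped the controls of its depot and day. The log2 changes were -0.55 and -1.64 in WAT cells (adjusted p = 0.00307 and 4.46e-07) and -1.80 and -1.14 in BAT cells (adjusted p = 3.86e-07 and 5.45e-06) on day 4 and 8, each with an SE of 0.13. All 4 calls were kept under every alternative and without any 1 library.

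Ccl5 was at the edge of detection, with 0 to 36 reads a library. In BAT cells on day 4 the controls were at 1.15, 0.965 and 1.43 FPKM and the EGCG libraries at 0.341, 0.121 and 0.412 FPKM. Day 8 WAT controls were at 1.08, 0.485 and 0.813 FPKM, and of the EGCG libraries replicate 1 was at 0.0864 FPKM and the other 2 had no read. A library of the first table with 3 reads would stand at 0.0849 to 0.114 FPKM. The WAT day 8 counts were 3 reads with EGCG against 49 in the controls (replicates 1 and 2), a ratio of 0.0599 with a 95% counting interval of 0.0119 to 0.186. The log2 change passed in WAT cells on day 8 (-0.76, adjusted p = 0.00764) and in BAT cells on day 4 (-0.75, adjusted p = 0.0114). Ccl5 passed the filter only through control libraries, so a fall with EGCG was in part built in. The first call was lost without control replicate 1 (adjusted p = 0.077), and the second without control replicate 1 (adjusted p = 0.065) or EGCG replicate 2 (adjusted p = 0.084). In WAT cells on day 4 the controls, at 0.613, 1.19 and 0.822 FPKM, overlapped the EGCG libraries at 0.102, 0.546 and 0.766 FPKM. That change lay near the threshold (-0.52, adjusted p = 0.053) and passed after median-ratio or quantile scaling (-0.58 and -0.64, adjusted p = 0.037 and 0.026), with both tables and rescaling (-0.41, adjusted p = 0.032) and without WAT day 4 control replicate 1, WAT day 4 EGCG replicate 2 or either WAT day 8 control library (adjusted p = 0.021 to 0.035). In BAT cells on day 8 the controls were at 0.354, 0.228 and 0.424 FPKM, and with EGCG replicate 1 was at 0.160 FPKM and the other 2 had no read (adjusted p = 0.285). It passed only with both tables in 1 fit after rescaling (-0.36, adjusted p = 0.0465, or 0.0495 without WAT day 8 EGCG replicate 3).

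The macrophage markers moved with EGCG in opposite directions on the 2 days. Of 11 tested markers, 10 were higher in WAT and 8 in BAT cells on day 4, and 11 and 10 were lower on day 8. Of all genes 34.4% and 27.9% were higher on day 4 in WAT and BAT cells, and 44.7% and 46.5% on day 8. The shares of lower genes were those given for the interferon response genes. Their summed level over the 3 libraries of a group was 89.3 to 99.5 FPKM in WAT controls and 212 to 228 FPKM with EGCG on day 4, and 162 to 207 FPKM against 29.6 to 69.2 FPKM on day 8. In BAT cells it was 211 to 237 FPKM against 445 to 535 FPKM on day 4, and 156 to 172 FPKM against 70.0 to 70.8 FPKM on day 8. Ptprc, which encodes the pan-leukocyte protein CD45, did not pass the filter and reached 0.857 FPKM. The 8 markers of mature adipocytes were lower with EGCG in all 4 comparisons, from 9082 to 9961 FPKM summed in BAT day 8 controls to 426 to 440.5 FPKM with EGCG. Of 7 tested markers of fibroblasts and progenitors 2 were higher and 3 lower in WAT cells on day 4, 1 and 5 on day 8, 2 and 1 in BAT cells on day 4, and 1 and 4 on day 8. Their sum over libraries was 1362 to 1491 FPKM in BAT controls and 1309 to 1507 FPKM with EGCG on day 4, and 1637 to 2078 FPKM against 1265 to 1367 FPKM on day 8. In WAT cells it was 2610 to 2956 FPKM in controls and 1742 to 1970 FPKM with EGCG on day 4. On day 8 the WAT sum was 3873 to 4583 FPKM against 806 to 1982 FPKM, the lowest value being from the library that stood apart. Of 6 tested endothelial markers 5 and 4 were higher with EGCG in WAT cells on day 4 and 8 and 6 on each day in BAT cells, and both tested mesothelial markers were higher in all 4 comparisons. Of 12 glucocorticoid response genes 4 were higher and 4 lower with EGCG in WAT cells on day 4, and 3 and 5 on day 8. In BAT cells 5 of them were higher and 2 lower on day 4, and 2 and 10 on day 8. The part of these cell types in the members' changes was not tested.

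**Figure D3:**
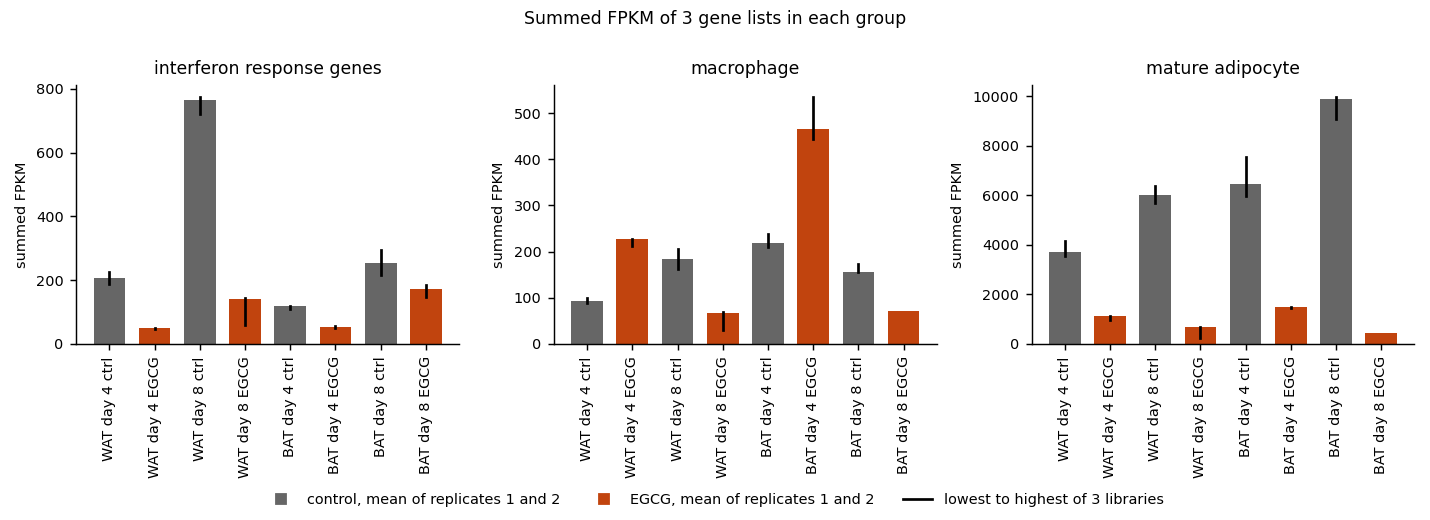
Summed FPKM of the 16 interferon response genes, the 12 macrophage markers and the 8 markers of mature adipocytes in the 8 groups, with bars for the mean of replicates 1 and 2 and lines from the lowest to the highest of the 3 libraries. The macrophage sum is above its control on day 4 and below it on day 8 in both depots, while the adipocyte sum is below its control throughout.

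The EGCG effects were also set against each other, by a test of the difference itself. Between the depots the effect differed for 5 members on day 4 (28.1% of all genes), namely Cxcl12, Cxcl14, Ccl2, Ccl7 and Ccl9, and for 6 on day 8 (39.2% of all genes), namely Cxcl1, Cxcl10, Cxcl12, Ccl2, Ccl7 and Ccl9. Between the days it differed for Cxcl2, Ccl7 and Ccl9 in WAT cells, 3 members (49.4% of all genes), and for Cxcl2, Cxcl12, Ccl2, Ccl7 and Ccl9 in BAT cells, 5 members (55.4% of all genes).

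The next question was how the genes changed between the end of induction on day 4 and day 8. In control BAT cells 8 members were lower on day 8 and none higher (69.2% of all genes passed and 40.4% were lower). In control WAT cells 3 passed, namely Cxcl1, Cxcl5 and Cxcl14 (61.0% of all genes). With EGCG 7 passed in WAT cells (59.5% of all genes) and 6 in BAT cells (58.0%). The median change of the members was -0.92 in BAT controls and -0.13 in WAT controls, against -0.10 and -0.03 over all genes. In BAT controls rescaling moved the median over all genes to 0.02 and the share of higher genes among those called from 41.5% to 53.3%.

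Cxcl1 and Cxcl5 fell from day 4 to day 8 in all 4 settings of depot and treatment. The fall of Cxcl1 was 7.90-fold in WAT controls and 11.8-fold in BAT controls (log2 changes -2.34 and -2.92, SE 0.22, adjusted p = 2.52e-06 and 2.32e-07). That of Cxcl5 was 9.47-fold and 39.8-fold (log2 changes -2.95 and -4.47, SE 0.43, adjusted p = 8.65e-05 and 1.87e-06). With EGCG the log2 changes of Cxcl1 were -2.77 and -2.83 and those of Cxcl5 -2.53 and -3.63. Cxcl2 fell with EGCG in both depots (-2.06 and -1.76), from the only libraries that carried it through the filter. In controls it went from 0.299 to 0.0356 FPKM in WAT cells, 8.40-fold, and from 0.364 to 0.163 FPKM in BAT cells, and neither change passed on the scale of FPKM + 1 (log2 changes -0.32 and -0.21, adjusted p = 0.064 and 0.194). The WAT change passed with a pseudocount of 0.1 (-1.52, adjusted p = 0.014), with limma-voom on recovered reads (-2.84, adjusted p = 0.013), with median-ratio (-0.34, adjusted p = 0.049) or quantile scaling (-0.40, adjusted p = 0.032), with the replicate block (adjusted p = 0.031), with both tables and rescaling (-0.27, adjusted p = 0.018) and without either BAT day 4 control library (adjusted p = 0.026 and 0.025). The BAT change passed with both tables and rescaling (-0.24, adjusted p = 0.035) and without BAT day 4 control replicate 2 (-0.43, adjusted p = 0.016), and was 0.0063 without replicate 1.

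Cxcl14 fell 5.72-fold in BAT controls (log2 change -2.40, SE 0.13, adjusted p = 1.44e-08) and 1.36-fold in WAT controls (-0.44, adjusted p = 0.0107), and the WAT call was lost without day 4 control replicate 2 (adjusted p = 0.063) or day 8 control replicate 2 (adjusted p = 0.114). Ccl9 fell 5.64-fold in BAT controls (log2 change -2.21, SE 0.13, adjusted p = 2.4e-08), while in WAT controls it stood at a log2 change of 0.12 that did not pass. With EGCG the mean of Ccl9 went from 2.71 to 0.897 FPKM in WAT cells and from 5.01 to 1.04 FPKM in BAT cells. That of Cxcl14 with EGCG went from 58.0 to 56.3 FPKM in WAT cells and from 103 to 16.7 FPKM in BAT cells. Cxcl12 fell in BAT controls (-0.62), in BAT cells with EGCG (-1.21) and in WAT cells with EGCG (-0.55). Ccl2 and Ccl7 fell in BAT controls (-0.69 and -1.14), and that of Ccl2 lost its call without day 8 control replicate 1 (-0.48, adjusted p = 0.072). In WAT controls Ccl7 did not pass (0.24, adjusted p = 0.449), but was called lower on day 8 without day 8 control replicate 1 (-0.34, adjusted p = 0.048) and higher without replicate 2 (0.82, adjusted p = 0.0003). With EGCG Ccl7 rose in WAT cells (1.65, SE 0.27, adjusted p = 0.000216). Ccl2 was also called higher there (0.54, adjusted p = 0.027), but lost the call without 1 of 3 libraries (day 4 EGCG replicate 1 or 2, day 8 EGCG replicate 1; adjusted p = 0.075, 0.097 and 0.138), and replicate 3 as deposited had the other sign. Ccl5, which passed the filter only through control libraries, fell in BAT controls (-0.67, adjusted p = 0.0131). It lost the call without day 4 control replicate 1 or day 8 control replicate 2 (both adjusted p = 0.07). Cxcl10 passed in none of the 4. These comparisons use the same libraries as the comparisons of EGCG with control.

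**Figure D4:**
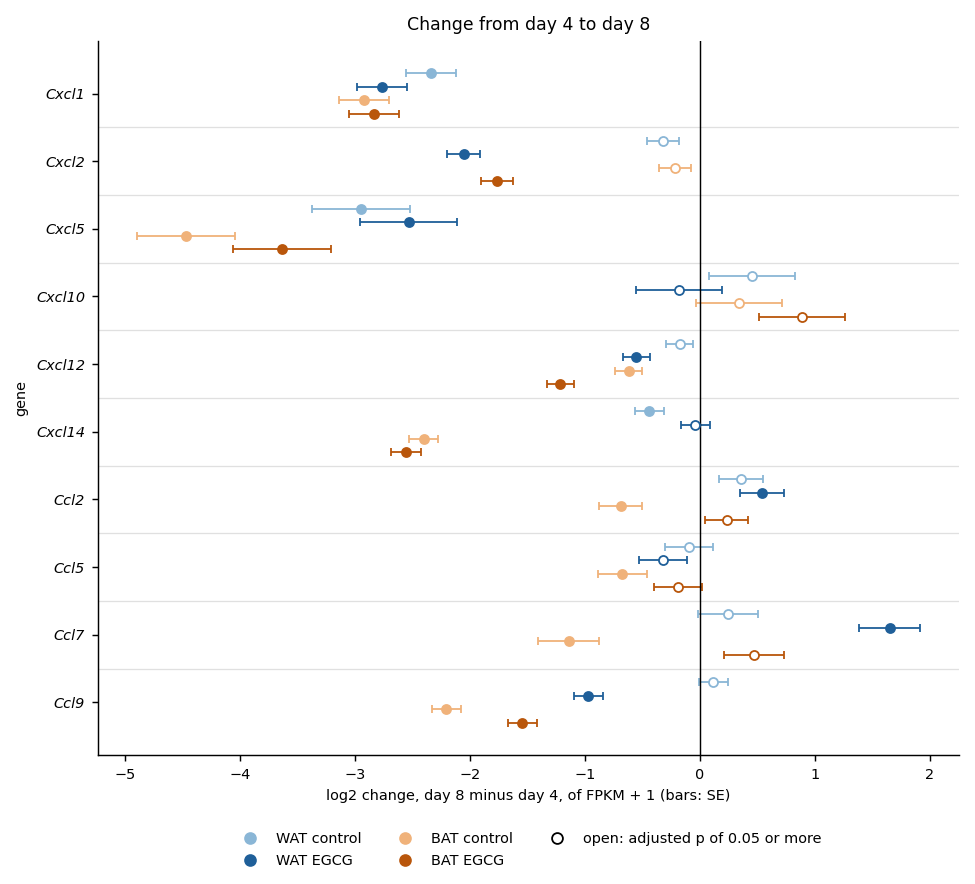
Log2 change of FPKM + 1 from day 4 to day 8 for each member, day 8 minus day 4, with SE bars and 1 colour for each depot and treatment; open circles did not pass the test. Cxcl1 and Cxcl5 lie to the left of 0 in all 4 settings, and Ccl7 lies at 1.65 in WAT cells with EGCG and at -1.14 in BAT controls.

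The depots were compared within each day and treatment. Among day 4 controls 5 members passed (55.8% of all genes): Ccl9, Cxcl1 and Cxcl5 were higher and Cxcl10 and Ccl2 lower in BAT than in WAT cells. Of all called genes 74.3% were higher in BAT cells, and 51.6% after rescaling. Ccl9 was 4.45-fold higher in BAT cells (by 1.93 on the log2 scale, SE 0.13, adjusted p = 4.93e-07). The other 4 calls were each lost on leaving out 1 library: Cxcl1 and Cxcl5 without BAT replicate 1 (adjusted p = 0.068 and 0.066), Cxcl1, Cxcl10 and Ccl2 without WAT replicate 2 (adjusted p = 0.06, 0.081 and 0.074), Cxcl10 also without BAT replicate 1 (adjusted p = 0.2) or WAT replicate 1 (adjusted p = 0.096), and Ccl2 also without BAT replicate 2 (adjusted p = 0.071). The count fell to 2 without WAT replicate 2 or BAT replicate 1. Among day 8 controls 5 passed and all were lower in BAT cells (53.6% of all genes passed and 22.0% were lower): Cxcl10, Cxcl14, Ccl2, Ccl7 and Ccl9. Cxcl14 was 3.75-fold lower (log2 change -1.81, SE 0.13, adjusted p = 4.35e-07) and Ccl2 3.61-fold lower (-1.66, SE 0.19, adjusted p = 1.81e-05). The calls of Cxcl10 were lost without any of 3 libraries (adjusted p = 0.052, 0.061 and 0.131 without WAT replicate 1, WAT replicate 2 or BAT replicate 2) and those of Ccl9 without WAT replicate 1 or BAT replicate 1 (adjusted p = 0.154 and 0.131). The change of Ccl7 (-1.16) was -0.58 without WAT replicate 1 and -1.74 without WAT replicate 2, and passed in both. Cxcl5, at 0.02, passed as higher in BAT cells without WAT replicate 1 (0.96, adjusted p = 0.0019) and as lower without WAT replicate 2 (-0.93, adjusted p = 0.0022).

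With EGCG, on day 4, 6 members passed (48.7% of all genes), with Cxcl1, Cxcl14, Ccl2, Ccl7 and Ccl9 higher and Cxcl12 lower in BAT cells. Of all called genes 67.6% were higher in BAT cells, and 56.9% after rescaling. Ccl7 was 4.80-fold and Ccl2 2.91-fold higher in BAT cells (log2 changes 2.2 and 1.46, adjusted p = 3.97e-05 and 6.88e-05). The Cxcl12 change (-0.40, adjusted p = 0.0166) was lost without either WAT replicate or BAT replicate 1 (adjusted p = 0.05, 0.076 and 0.145). On day 8 6 passed (38.4% of all genes), with Cxcl1, Cxcl10, Ccl2 and Ccl7 higher and Cxcl12 and Cxcl14 lower in BAT cells. Cxcl14 was 3.37-fold lower (log2 change -1.69, adjusted p = 2.23e-06) and Cxcl12 2.12-fold lower (-1.06, adjusted p = 4.3e-05). The Cxcl10 call (1.23, adjusted p = 0.022) rested on BAT replicate 2: without it the change was 0.51 (adjusted p = 0.212), and it was also lost without either WAT replicate (adjusted p = 0.094 and 0.07). That of Ccl7 (1.02, adjusted p = 0.00993) was lost without WAT replicate 2 (adjusted p = 0.052) or BAT replicate 2 (adjusted p = 0.061). Over the 4 depot comparisons replicate 3 had the same sign in 21 of the 22 calls, the exception on day 8 with EGCG being Cxcl12 as deposited and Cxcl10 after rescaling.

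The order of the 8 groups differed from gene to gene. Cxcl1 fell from BAT day 4 EGCG through BAT day 4 control, WAT day 4 EGCG and WAT day 4 control to the 4 groups of day 8. Ccl7 ran from BAT day 8 EGCG through BAT day 4 EGCG and WAT day 8 EGCG down to BAT day 8 control. In that order, neighbouring groups overlapped in replicates 1 and 2 in 1 of 7 pairs for Ccl7, in 2 of 7 for Cxcl1 and for Ccl2, and in all 7 for Ccl5. For Ccl2 the pairs that overlapped were BAT day 8 EGCG with BAT day 4 EGCG, and WAT day 8 control with WAT day 8 EGCG. For Ccl9 the highest group, BAT day 4 control, was apart from all others, and WAT day 8 control overlapped its neighbours WAT day 4 control and BAT day 4 EGCG. Across the groups the means spanned 100.0-fold for Cxcl2, 39.8-fold for Cxcl5, 30.9-fold for Cxcl1 and 22.0-fold for Ccl9, but 3.66-fold for Cxcl12.

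Over the 16 libraries of replicates 1 and 2, the closest pairs of members were Cxcl1 with Cxcl5 (Pearson r of log2 values 0.93) and Ccl2 with Ccl7 (0.90). The most opposed pair was Cxcl12 with Ccl7 (-0.66). The points are libraries of 8 groups, so these values describe the group pattern. Of all genes averaging at least 5 FPKM, Ccl7 was the one closest to Ccl2. The nearest to Cxcl1 was Atad2 (0.98), followed by Smc2 (0.98), a condensin subunit, and to Cxcl5 Cks2 (0.97), a subunit of cyclin-dependent kinases, and Hgf (0.97), hepatocyte growth factor. For Cxcl10 they were Tor1aip1, Rnf213 and Ifit1 (0.87, 0.87 and 0.86), the last an interferon response gene. The nearest gene was Angpt2 for Cxcl2 (0.95), Fut11 for Cxcl12 (0.95), Prr3 for Cxcl14 (0.92), Pde12 for Ccl7 (0.96), Dhcr7 for Ccl9 (0.96) and Sfxn2 for Ccl5 (0.86).

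Of 27 other chemokine ligands, 26 matched the annotation and 12 passed the filter. With EGCG 3 were higher and 5 lower in WAT cells on day 4, and 1 higher and 9 lower on day 8. In BAT cells 1 was higher and 2 lower on day 4, and 2 higher and 6 lower on day 8. Of all genes 34.4% were higher and 19.3% lower in WAT cells on day 4, and 44.7% and 18.9% on day 8. The shares in BAT cells were 27.9% higher and 20.6% lower on day 4, and 46.5% and 26.1% on day 8. Cxcl13, which draws B cells, showed the largest fall, from 33.3 to 0.432 FPKM in WAT and from 28.3 to 0.128 FPKM in BAT cells on day 8. Its level in the day 4 controls, 129 FPKM in WAT and 153 FPKM in BAT cells, was above that of Cxcl12. Pf4 and Ccl6, chemokines made by myeloid cells, were higher with EGCG in WAT cells on day 4 (2.88 against 0.956 FPKM and 7.95 against 2.13 FPKM) and lower on day 8 (0.102 against 6.24 FPKM and 2.84 against 15.6 FPKM), as the macrophage markers were. Ccl12 fell from 6.76 to 0.0234 FPKM and Ccl3 from 1.26 to 0.264 FPKM in WAT cells on day 8. Ccl11, which draws eosinophils, was lower with EGCG in WAT cells on day 4 (19.3 against 59.6 FPKM) and higher in BAT cells on day 8 (4.33 against 1.18 FPKM). Cx3cl1 was lower on day 8 in both depots (3.31 against 6.77 FPKM and 6.18 against 9.99 FPKM), Cxcl16 lower in WAT cells on both days, and Ccl25 passed in no EGCG comparison. Ccl27a was higher in WAT cells on day 4 (4.29 against 2.44 FPKM) and lower on day 8 in both depots.

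**Figure D5:**
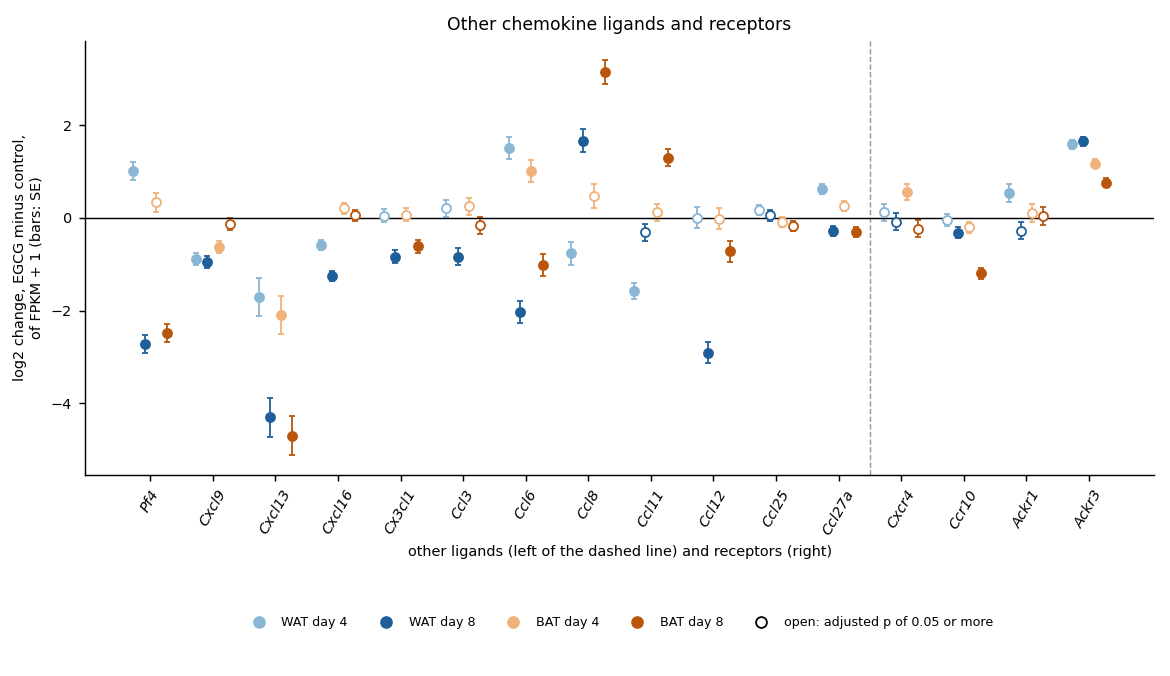
Log2 change with EGCG of FPKM + 1, EGCG minus control, for the 12 other ligands and 4 receptors that passed the filter, with SE bars and 1 colour for each depot and day; open circles did not pass the test. Ccl8 reaches 3.14 in BAT cells on day 8, Cxcl13 lies at -4.30 and -4.70 on day 8, and Ackr3 is above 0 in all 4 comparisons.

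Of 22 chemokine receptors 4 passed the filter: Ackr3, Cxcr4, Ackr1 and Ccr10. Ackr1, a scavenger of inflammatory chemokines, was higher with EGCG in WAT cells on day 4 (1.02 against 0.397 FPKM), and Ccr10 was lower on day 8 in WAT cells (0.643 against 1.04 FPKM) and in BAT cells (0.752 against 3.01 FPKM). The signalling receptors of most members were near 0. Cxcr2, the receptor of Cxcl1, Cxcl2 and Cxcl5, had at most 1 read in any of the 24 libraries, and Cxcr3, the receptor of Cxcl10, at most 7. Ccr1, the receptor of Ccl9, reached 0.704 FPKM.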

How the data were processed

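RNA was sequenced in 24 libraries of 8 groups. The authors deposited FPKM per gene in separate tables, with replicates 1 and 2 in 1 and replicate 3 in the other. The submitters' processing notes name FastQC 0.11.9, HISAT2 2.2.0, HTSeq 0.11 and build mm9. Counting settings and strand are not given in the sources used here. FPKM were read back to whole reads (100% of values within 0.01 of a whole read), which gave depth and counting intervals (95%, exact). Genes with at least 1 FPKM in at least 2 of 16 libraries were tested by limma 3.58.1 (R 4.3.3) on log2(FPKM + 1), with 1 mean per group, a trended prior and Benjamini-Hochberg adjustment within each contrast, called at adjusted p below 0.05. A fold change on this scale understates the change of low genes. The members, gene lists and tests were chosen with earlier results of these data known. Supporting genes named for their changes were taken from the 2 highest and 2 lowest of each list, and from the other ligands and receptors that passed the filter. Not all of these are named, and those named from the cytokine and NF-kB lists were all higher with EGCG. The lists were other ligands, receptors, NF-kB, cytokine, interferon and glucocorticoid response genes, and markers of adipocytes, fibroblasts, macrophages, other leukocytes, endothelium and mesothelium. On simulated data all 2-fold and 4-fold changes were recovered (95 and 98 genes of 13142, EGCG against control, BAT day 8), and 5 unchanged genes were called at each size. This does not carry over to members of low level or wide spread. Cxcl10 in BAT cells on day 4, at 2.07 FPKM in controls and 0.935 FPKM with EGCG, did not pass limma's test (adjusted p = 0.193). Replicates differed by more than sampling noise. Alternatives changed the pseudocount, filter, scaling, test, tables and libraries used. The values of 1 listed receptor are not reported here.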

Additional observations from a re-analysis of the deposited data

Results flagged for a closer look

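Each value here is a difference between 2 EGCG effects on the log2 scale of FPKM + 1 that passed limma's test of the difference itself. Between depots on day 4 (BAT minus WAT), 5 members passed (28.1% of all genes did): Ccl2 by 2.07 (SE 0.27, adjusted p = 0.000214), Ccl7 by 1.98 (SE 0.37, adjusted p = 0.00266), Cxcl14 by 0.66 (SE 0.18, adjusted p = 0.0184), Cxcl12 by -0.56 (SE 0.17, adjusted p = 0.0292) and Ccl9 by -1.24 (SE 0.18, adjusted p = 0.00042). Between depots on day 8, 6 members passed (39.2% of all genes): Ccl2 by 2.81 (SE 0.27, adjusted p = 1.3e-05), Cxcl10 by 2.43 (SE 0.53, adjusted p = 0.00358), Ccl7 by 2.18 (SE 0.37, adjusted p = 0.000828), Cxcl1 by 1.10 (SE 0.31, adjusted p = 0.0149), Ccl9 by 0.50 (SE 0.18, adjusted p = 0.0431) and Cxcl12 by -0.77 (SE 0.17, adjusted p = 0.00369). The sign of the difference for Ccl9 was opposite on the 2 days, since its fall with EGCG was larger in BAT cells on day 4 and in WAT cells on day 8.

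Between days (day 8 minus day 4), 3 members passed in WAT cells (49.4% of all genes): Ccl7 by 1.41 (SE 0.37, adjusted p = 0.00896), Ccl9 by -1.09 (SE 0.18, adjusted p = 0.00043) and Cxcl2 by -1.73 (SE 0.20, adjusted p = 3.27e-05). In BAT cells 5 passed (55.4% of all genes): Ccl7 by 1.61 (SE 0.37, adjusted p = 0.00334), Ccl2 by 0.92 (SE 0.27, adjusted p = 0.0114), Ccl9 by 0.66 (SE 0.18, adjusted p = 0.00789), Cxcl12 by -0.59 (SE 0.17, adjusted p = 0.0105) and Cxcl2 by -1.55 (SE 0.20, adjusted p = 4.72e-05). Median-ratio rescaling moved the share of positive differences among all genes called from 42.7% to 61.5% between depots on day 4 and from 62.8% to 49.3% between days in BAT cells. The 2 families of differences share libraries. Cxcl2 passed the filter only through its day 4 EGCG libraries, so its day differences were in part built in. Replicate 3 had the sign of 18 of the 19 differences as deposited, the exception being Cxcl12 between depots on day 8.

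Leaving out 1 library ended the call of Cxcl12 between depots on day 4 in 6 cases (adjusted p up to 0.113, without BAT day 4 EGCG replicate 1), of Cxcl14 on day 4 without WAT control replicate 2, WAT EGCG replicate 1, BAT control replicate 2 or BAT EGCG replicate 1 (adjusted p = 0.061, 0.063, 0.068 and 0.063), and of Cxcl1 on day 8 without WAT EGCG replicate 2, BAT control replicate 1 or BAT EGCG replicate 2 (adjusted p = 0.063, 0.057 and 0.063). That of Ccl9 on day 8 was the least stable, with an adjusted p of up to 0.145 without WAT day 8 EGCG replicate 1. The day difference of Ccl2 in BAT cells was lost without day 8 control replicate 1 (0.71, adjusted p = 0.052) or EGCG replicate 2 (0.76, adjusted p = 0.050). The day difference of Ccl7 in WAT cells kept its call but was 0.83 without day 8 control replicate 2. The differences of Ccl2 and Ccl7 between depots, and that of Cxcl10, were kept without any 1 library.

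Other settings ended calls too. With both tables and the replicate block in 1 fit, Cxcl12 lost its depot differences on day 4 (-0.50, adjusted p = 0.666) and day 8 (-0.38, adjusted p = 0.446) and its day difference in BAT cells (-0.62, adjusted p = 0.244), Cxcl14 its depot difference on day 4 (0.71, adjusted p = 0.324), and Ccl9 its depot difference on day 8 (0.56, adjusted p = 0.108) and its day difference in BAT cells (0.51, adjusted p = 0.149). The Ccl9 day difference in BAT cells was also lost with a pseudocount of 0.1 (0.32, adjusted p = 0.284) and with limma-voom on recovered reads (0.24, adjusted p = 0.474), and its depot difference on day 8 with no filter (adjusted p = 0.087), with the replicate block (adjusted p = 0.054), with limma-voom (0.76, adjusted p = 0.101) and with both tables, rescaling and WAT day 8 EGCG replicate 3 left out (0.39, adjusted p = 0.059). Cxcl12 on day 4 was lost with no filter (adjusted p = 0.064) and with median-ratio (-0.46, adjusted p = 0.064) or quantile scaling (-0.50, adjusted p = 0.054). With limma-voom Cxcl1 between depots on day 8 (1.58, adjusted p = 0.073) and Cxcl2 between days in WAT cells (-2.60, adjusted p = 0.071) were lost.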

How the results depend on the processing

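Of the 89 called values of members in 16 contrasts, none reversed under the 10 alternative settings or on leaving out each of the 16 tested libraries in turn, and 60 kept their call throughout. Of the 24 called EGCG effects 17 did so: Ccl9 in all 4 comparisons, Ccl2, Ccl7 and Cxcl1 in BAT cells on both days, Cxcl2 on day 4 and Cxcl10 in WAT cells on both days, and Ccl7 in WAT cells, Cxcl12 in BAT cells on day 8 and Cxcl14 in BAT cells on day 4. Cxcl2 and Ccl5 had no value under the filter of 5 FPKM and were judged on the other settings. The numbers of members called also moved. For EGCG in WAT cells on day 4 they were 5 after median-ratio scaling, 6 with both tables, the replicate block and that scaling (with or without WAT day 8 EGCG replicate 3), and 3 to 6 on leaving out 1 library, against 3. For the day in WAT controls they were 5 with both tables, block and scaling (with or without that library), and 2 to 5 on leaving out 1 library, against 3. For the depot in day 4 controls they were 3 with a pseudocount of 0.1 and 2 to 5 on leaving out 1 library, against 5. Of the differences between EGCG effects, those between depots on day 4 numbered 3 with both tables and the block and 3 to 6 on leaving out 1 library, against 5, those between days in BAT cells 3 with both tables and the block, against 5, and those between days in WAT cells 3 to 5 on leaving out 1 library, against 3. The cause was not tested.

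The values that reversed had all missed the threshold in the fit of replicates 1 and 2. Of them the day effect on Ccl7 in WAT controls and the depot effect on Cxcl5 in day 8 controls passed in opposite directions without WAT day 8 control replicate 1 or 2 (-0.34 and 0.82, and 0.96 and -0.93). With median-ratio scaling the EGCG effect was -0.045 for Cxcl14 in WAT cells on day 4 and -0.011 for Cxcl2 in BAT cells on day 8. With both tables and the replicate block it was -0.00070 and -0.030 for Cxcl2 in WAT and BAT cells on day 8 and 0.016 for Cxcl10 in BAT cells on day 8. With scaling added it was -0.035 for Cxcl14 in WAT cells on day 4 and -0.053 for Cxcl2 in BAT cells on day 8, with or without WAT day 8 EGCG replicate 3. On leaving out 1 library the EGCG effect in WAT cells on day 8 ran from -0.42 to 0.26 for Cxcl1, from -0.011 to 0.17 for Cxcl2 and from -0.53 to 0.13 for Ccl2, and in BAT cells on day 8 from -0.014 to 0.047 for Cxcl2 and from -0.79 to 0.65 for Cxcl10. The day effect on Ccl9 in WAT controls ran from -0.0081 to 0.24.

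The replicate numbers are shared by all groups. Over 28 pairs of groups, deviations of same-numbered libraries over all tested genes correlated at -0.079 to 0.081, and none exceeded 0.1. No shared effect of the number was thus seen across genes as a whole. This cannot tell whether same-numbered libraries came from the same isolation. With the replicate block in the fit of replicates 1 and 2, 158 of 160 values kept their direction and side of the threshold, and the members called numbered 4 against 3 for the day in WAT controls and 5 against 6 for the depot difference on day 8. The stricter filter of 5 FPKM gave no value for Cxcl2 and Ccl5. Ccl5, and Cxcl2 outside its day 4 EGCG libraries, are near the limit of detection, where 3 reads can decide a value. In the day 4 EGCG libraries of replicates 1 and 2 Cxcl2 held 249 to 303 reads. The scaling of replicate 3 and 2 tested libraries a group limit every test here.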
